A study of Mus musculus with 12 samples.

Results

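Wild-type CD4+ T cells of mouse spleen were compared between 2 time points, directly after isolation (0 h) and after 24 h on plate-bound antibody to CD3. The wild-type libraries, 3 at each time point, were picked by genotype and time in their labels and made up 6 of the 12 libraries of the series. Their deposited counts covered 23479 gene symbols, and 10981 of these had enough reads to be tested. The cells came from C57BL/6J mice with an intact Sirt2 gene, and other spleen cells were removed to leave a CD4+ fraction of more than 95% by flow cytometry, per the labels. RNA of the 0 h cells, which the labels call naïve, was extracted at once. The 24 h cells had been kept in RPMI medium with 10% fetal bovine serum and penicillin/streptomycin, in wells coated with clone 145-2C11 at 5 µg/ml. The remaining 6 libraries were from Sirt2-/- cells at the same times. They entered the estimate of the spread, and their response is set beside that of the wild type at the end. The labels name anti-CD3 as the sole stimulus and no culture without antibody is used here, so stimulation and time in culture cannot be told apart. The isolated fraction holds every kind of CD4+ T cell, and in such bulk RNA fewer cells of a type and less RNA per cell cannot be told apart. Whether replicates were separate mice is not stated in the labels, so p-values refer only to the spread between these libraries, and that spread may be technical.

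A resting CD4 T cell circulates between blood and lymphoid organs, keeps its ribosome and nutrient use low and depends on interleukin-7. When its T cell receptor is bound, kinases next to the receptor start calcium, MAP kinase and NF-kappaB signals, which switch on early response genes and then receptors, cytokines and the machinery of growth. CD28 normally adds a second signal. Growth precedes division, so that in the first day activated T cells enlarge, make ribosomes and take up amino acids before most of them divide.

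Reads in genes ranged from 6.40 to 8.77 megareads in the wild-type libraries at 0 h and from 4.68 to 8.02 megareads at 24 h. Rn45s, the precursor of ribosomal RNA, held 14.5% ± 1.42 of gene reads at 0 h and 9.12% ± 0.416 at 24 h (two-sided exact permutation p = 0.1, the lowest possible p with 3 libraries in each group). Reads that mapped to several places made up 29.9% of all reads at 0 h and 27.2% at 24 h (exact permutation p = 0.1). The part of these differences in the results was not tested. Leaving Rn45s out gave 2220 higher and 2249 lower genes against 2217 and 2253 with it. The first principal component of log CPM held 69.1% of the variance of the 6 libraries and separated the time points. Levels below are read counts scaled to library size (CPM) with TMM factors, given per library in the order of replicates 1 to 3 or as mean ± SD over 3 libraries. Sirt2 itself had 70.5, 67.9 and 85.4 CPM at 0 h and 62.3, 62.9 and 76.3 CPM at 24 h. It did not pass the test between the times (edgeR adjusted p = 0.487), and its mean was 12.5 CPM at 0 h and 13.2 CPM at 24 h in the Sirt2-/- libraries.

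After 24 h, 2217 genes were higher and 2253 were lower than at 0 h at an adjusted p (edgeR quasi-likelihood test with Benjamini-Hochberg adjustment, called edgeR adjusted p throughout) below 0.05, which is 20.2% and 20.5% of the genes tested. Of them, 641 genes (5.84% of those tested) had at least doubled and 813 (7.40%) had at least halved. In 5417 genes (49.3%) the 3 libraries of one time point did not overlap with those of the other, and these included 94.5% of the genes called. Each list of genes described below should be read against these shares. In any list, genes near 0 at 0 h were tested only through their 24 h reads, which raises the share of rises among tested members. The same holds in reverse for falls. The median log2 fold change over all genes tested was 0.0027. With scaling by total counts alone the median was 0.21, and 3580 genes rose while 1468 fell, so that 70.9% of the calls were upward instead of 49.6%.

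**Figure D1:**
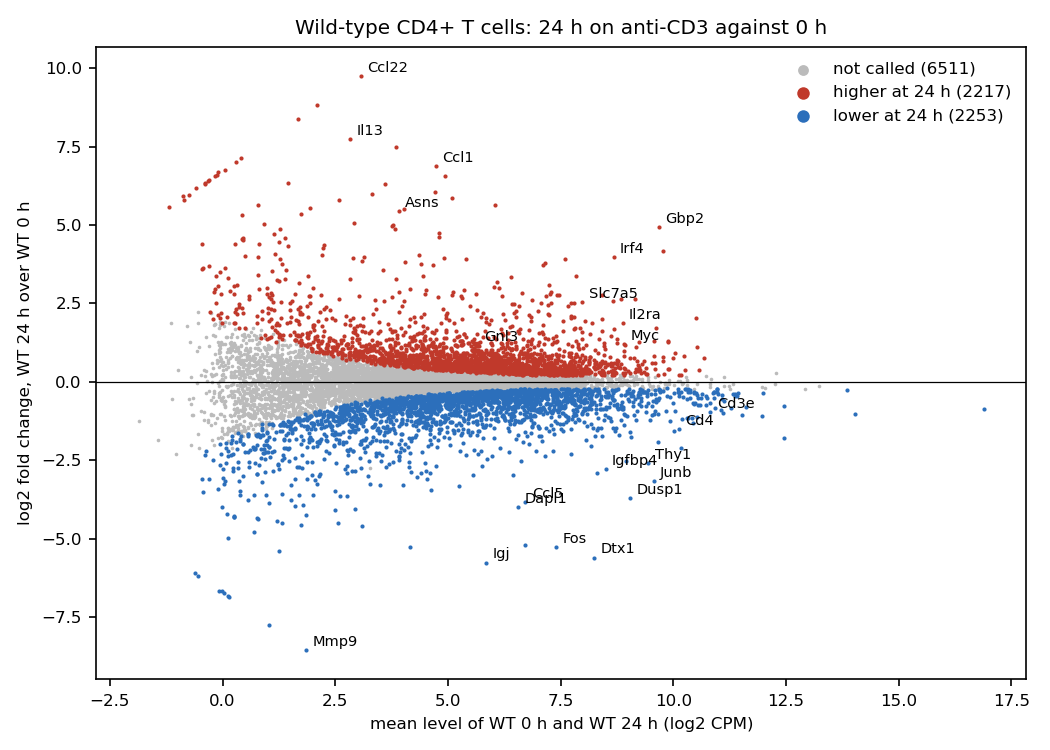
Each point is 1 of the 10981 genes tested in wild-type cells, with the log2 of its mean CPM over both time points on the x axis and its log2 fold change at 24 h against 0 h on the y axis. Genes that passed at an adjusted p below 0.05 are coloured by direction, 2217 up and 2253 down, and the largest changes lie among genes of low and middle abundance.

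The 15 largest rises by the naming rule included the chemokine genes Ccl22, Ccl1, Ccl3 and Ccl4, the cytokine gene Il13 and the transporter genes Slc7a3, Slc6a9 and Slc7a11. Ccl22, which encodes a ligand of the chemokine receptor CCR4, had no read in any 0 h library and 20.1, 14.7 and 15.5 CPM at 24 h, at least 131-fold higher when the floor is 3 counts over the group. The arginine transporter gene Slc7a3 and Cth, which encodes the enzyme that makes cysteine from cystathionine, also had no read at 0 h. Slc7a3 was at least 71.1-fold and Cth at least 54.5-fold higher at 24 h by the same floor. Il13, a type 2 cytokine gene, had 1 read over the 0 h libraries and 299 over the 24 h libraries, a depth-scaled ratio of 346 with a 95% exact interval of 61.7 to 13730. The glycine transporter gene Slc6a9 had 3 and 614 reads, a ratio of 237 (80.8 to 1153), and the ketone body enzyme gene Bdh2 had 3 and 158 reads, a ratio of 61.0 (20.5 to 299). These floors and intervals cover counting error only. Sema7a encodes a membrane-bound semaphorin and had 3.64, 2.08 and 2.25 CPM at 0 h and 114, 112 and 161 CPM at 24 h. The naming rule required libraries without overlap, and the fitted rise was large (log2 fold change 5.63 ± 0.19 SE, edgeR adjusted p = 2.43e-26). Pros1, the gene of the TAM receptor ligand protein S, had 0.693, 0.277 and 1.25 CPM at 0 h and 38.98, 53.2 and 62.5 CPM at 24 h (log2 fold change 6.05 ± 0.27 SE, edgeR adjusted p = 4.47e-23). The steroid-metabolising enzyme gene Akr1c18 rose from 0.312 ± 0.275 to 19.7 ± 0.494 CPM (log2 fold change 6.001 ± 0.46 SE, edgeR adjusted p = 5.49e-15).

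The 15 largest falls included the early response genes Fos and Fosb, the Notch regulator gene Dtx1 and the marker genes Igj and Klrb1c of other lymphoid cells. Mmp9, the gene of a secreted gelatinase, had 7.80, 7.62 and 6.38 CPM at 0 h and no read at 24 h, at least 43.4-fold lower. Dtx1, which encodes an E3 ligase that regulates Notch and is itself a Notch target, had 526, 606 and 658 CPM at 0 h and 6.23, 11.7 and 17.6 CPM at 24 h. The fitted level at 24 h was 2.06% of that at 0 h (log2 fold change -5.60 ± 0.19 SE, edgeR adjusted p = 8.05e-14). The monocarboxylate transporter family gene Slc16a5 had 32.4, 38.4 and 34.8 CPM at 0 h and 0, 1.49 and 0.837 CPM at 24 h (log2 fold change -5.26 ± 0.30 SE, edgeR adjusted p = 1.83e-19). Dapl1, known from naive T cells, had 169.9, 184 and 174 CPM at 0 h and 15.9, 7.81 and 11.2 CPM at 24 h (log2 fold change -3.98 ± 0.17 SE, edgeR adjusted p = 2e-15). Dntt, the gene of the terminal transferase of immature lymphocytes, fell from 6.82 ± 0.608 to 0.379 ± 0.246 CPM, and the calcium-binding protein gene S100a4 fell from 14.4 ± 1.39 to 0.767 ± 0.534 CPM. Both had no overlap between the time points, which the naming rule required. Igj and Klrb1c mark plasma cells and NK cells and are described with those cell types.

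The promoters of 4 members of gene lists described below are shown. Each is the called member with the largest change among those whose window of 250 bases before the start held the motif searched. They are RefSeq sequences of build GRCm38.p6, with the motif letters in capitals, and motifs were searched on both strands. The 4 motifs were the E-box CACGTG, which MYC and related factors bind; the E2F letters TTTCCCGC, TTTGGCGC, TTTGCCGC or TTTCGCGC; the amino acid response letters TGATGNAA, which ATF4 binds with a partner; and the sterol response letters TCACNCCAC, which SREBP binds. E2F letters on opposite strands can overlap one another, as 2 of the 3 matches in Mcm6 do.
Nop2 (ribosome biogenesis, chr6:125131633-125131882, plus strand, E-box): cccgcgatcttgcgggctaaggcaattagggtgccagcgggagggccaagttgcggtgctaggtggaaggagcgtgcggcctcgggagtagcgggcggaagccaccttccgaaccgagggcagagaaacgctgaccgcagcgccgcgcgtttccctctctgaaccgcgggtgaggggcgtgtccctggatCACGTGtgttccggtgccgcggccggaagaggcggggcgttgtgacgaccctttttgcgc
Mcm6 (DNA replication, chr1:128359706-128359955, minus strand, E2F letters): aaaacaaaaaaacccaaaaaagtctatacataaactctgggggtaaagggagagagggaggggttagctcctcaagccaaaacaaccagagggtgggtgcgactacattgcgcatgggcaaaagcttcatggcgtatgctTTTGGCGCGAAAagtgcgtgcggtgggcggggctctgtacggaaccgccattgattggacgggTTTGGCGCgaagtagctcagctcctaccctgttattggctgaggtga
Slc7a11 (cystine transport, chr3:50443614-50443863, minus strand, amino acid response letters on both strands): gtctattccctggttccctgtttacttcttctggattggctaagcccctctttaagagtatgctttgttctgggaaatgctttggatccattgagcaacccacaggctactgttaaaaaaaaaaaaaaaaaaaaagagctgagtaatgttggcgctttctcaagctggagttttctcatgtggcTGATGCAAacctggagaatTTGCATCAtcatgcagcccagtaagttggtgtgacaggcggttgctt
Hmgcs1 (cholesterol synthesis, chr13:119690101-119690350, plus strand, sterol response letters): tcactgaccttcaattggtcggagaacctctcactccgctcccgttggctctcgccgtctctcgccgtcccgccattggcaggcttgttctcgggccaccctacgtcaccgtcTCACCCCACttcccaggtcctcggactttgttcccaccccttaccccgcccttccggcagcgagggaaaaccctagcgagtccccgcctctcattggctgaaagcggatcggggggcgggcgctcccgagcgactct
A promoter was matched for 8237 of the genes tested. The E-box was in 4 of 53 ribosome biogenesis promoters (7.55%), against 10.3% of the promoters of all genes tested. E2F letters were in 8 of 35 DNA replication promoters (22.9%), against 4.20% of those of the genes tested. TGATGNAA was in 3 of 24 stress response promoters (Chac1, Asns and Herpud1), in 3 of 26 synthetase promoters (Aars, Gars and Tars) and in 2 of 21 amino acid transporter promoters (Slc7a7 and Slc7a11), against 2.38% of those of the genes tested. TCACNCCAC was in 1 of 21 cholesterol promoters, against 1.21% of those of the genes tested. Over all promoters of the table the shares were 6.86%, 2.16%, 3.91% and 1.22%. A match describes the letters in the window and is not a binding site.

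**Figure D2:**
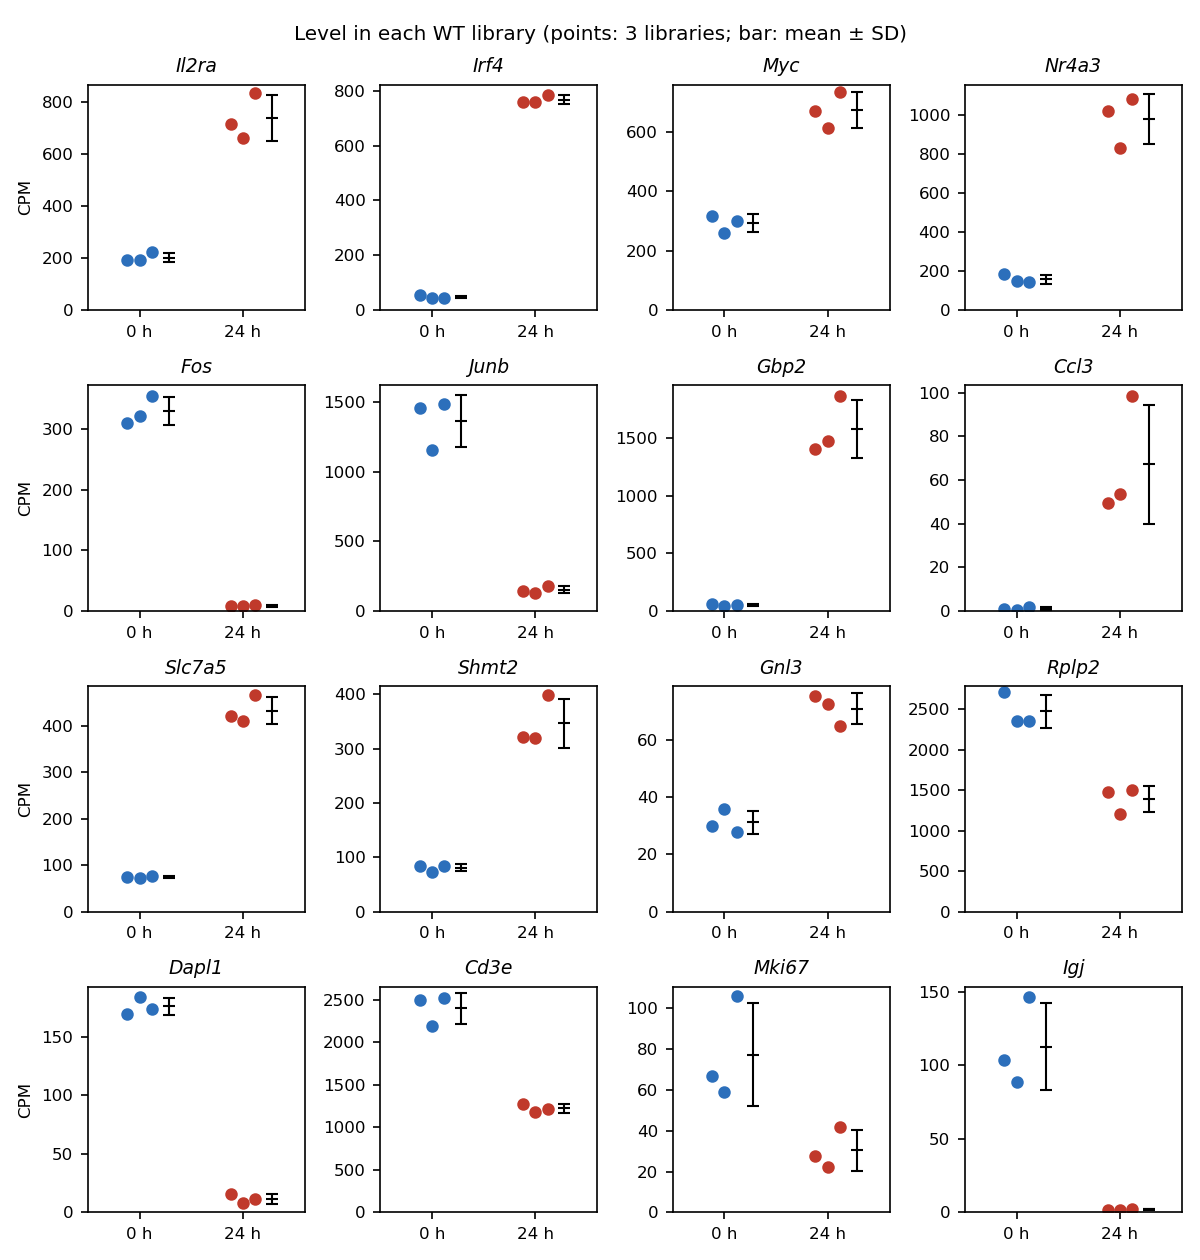
Levels of 16 named genes in CPM on linear axes from 0, with each wild-type library as a point at 0 h (blue) and 24 h (red) and the mean ± SD of 3 libraries as a black bar beside them. The 16 were picked from called genes of different groups after their values were seen, and in each of them the 0 h and 24 h points do not overlap; Irf4 sits between 757 and 786 CPM at 24 h, above 45.3 to 54.2 CPM at 0 h.

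Genes of the T cell receptor and its first signalling steps fell more often than they rose. Of 38 tested members, 20 fell and 10 rose (16 and 13 with total-count scaling, 23 and 7 with upper quartile scaling), with a median log2 fold change of -0.31. Cd4, the gene of the coreceptor that defines these cells, had 1686, 1569 and 1693 CPM at 0 h and 592, 514 and 646 CPM at 24 h. Every 24 h library was below every 0 h library (log2 fold change -1.50 ± 0.10 SE, edgeR adjusted p = 1.63e-16). The CD3 chain genes Cd3e (log2 -0.97), Cd3g (log2 -1.46) and Cd3d (log2 -0.81) fell as well, while Cd247, the gene of the zeta chain, did not pass (edgeR adjusted p = 0.0974). The falls of greatest size in the list were in Sit1, a gene of an inhibitory transmembrane adaptor that went from 83.8 ± 11.8 to 10.7 ± 0.783 CPM (log2 fold change -2.98 ± 0.15 SE, edgeR adjusted p = 7.22e-21), and in Themis, a regulator of T cell selection and receptor signalling (log2 fold change -1.58 ± 0.0916 SE, edgeR adjusted p = 3.24e-19). Rises were seen in Cblb, the gene of an E3 ligase that restrains receptor signalling. It had 443, 418 and 459 CPM at 0 h and 1107, 1053 and 1076 CPM at 24 h (log2 fold change 1.29 ± 0.0872 SE, edgeR adjusted p = 6.82e-17). The adaptor genes Lcp2 (log2 0.82) and Trat1 (log2 0.82) and Rasgrp1 (log2 0.61), which encodes an activator of RAS, also rose. The 3 markers of T cells at large that did not pass were Cd247, Cd28 and Bcl11b, and 9 of the 12 T cell markers fell, with a median of -0.76.

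Downstream of the receptor the 3 signalling branches were mixed. In the NF-kappaB list 10 of 25 tested members rose and 7 fell. The subunit genes Rel (log2 1.30), Nfkb1 (log2 1.14) and Relb (log2 0.58) rose. The inhibitor gene Nfkbia (log2 -0.89) and Nfkbiz (log2 -1.06) fell. So did Tnfaip3, a deubiquitinase gene that had 881, 787 and 816 CPM at 0 h and 256, 232 and 248 CPM at 24 h (log2 fold change -1.75 ± 0.0909 SE, edgeR adjusted p = 6.13e-21). With total-count scaling 14 members of this list rose and 4 fell. In the calcium and NFAT list 5 of 19 rose and 8 fell. Nfatc1 rose (log2 fold change 0.44 ± 0.0825 SE, edgeR adjusted p = 2.52e-05) and Nfatc2 fell (log2 fold change -1.34 ± 0.0889 SE, edgeR adjusted p = 3.85e-17), both genes of transcription factors that calcineurin activates. Orai1, the pore of the calcium channel, rose (log2 0.79), and its relative Orai2 and the calcium sensor gene Stim1 fell (log2 -1.002 and -0.72). Of 13 feedback genes of the MAP kinase pathway 3 rose and 3 fell (6 and 3 with total-count scaling). Each share, 23.1%, was near those of all genes tested, 20.2% up and 20.5% down. Spry1, the gene of a feedback inhibitor of receptor signalling, had 30.8, 25.2 and 33.8 CPM at 0 h and 158, 160.3 and 163 CPM at 24 h (log2 fold change 2.42 ± 0.11 SE, edgeR adjusted p = 1.23e-22), and its relative Spred1 rose by a log2 of 1.92.

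Early response genes split into a group far below its 0 h level and another far above it. Of 26 tested members 13 fell, 11 of them to 50% or less, and 10 rose, 8 of them to at least 200%. Fos, which encodes a subunit of the AP-1 factor, had 311, 323 and 356 CPM at 0 h and 7.43, 8.04 and 10.04 CPM at 24 h. Fosb, another AP-1 gene, had 223, 186 and 206 CPM at 0 h and 3.01, 6.32 and 6.56 CPM at 24 h. The fitted levels at 24 h were 2.603% and 2.72% of those at 0 h (log2 -5.26 and -5.20, edgeR adjusted p = 3.65e-33 and 7.71e-31). Dusp1 (log2 -3.71), a phosphatase gene that shuts off MAP kinases, Junb (log2 -3.17), Jun (log2 -2.52) and Zfp36 (log2 -1.92), an RNA decay gene, fell with them. In the other group Egr2, a transcription factor gene induced by calcium signals, had 52.8, 30.3 and 30.8 CPM at 0 h and 229.7, 217 and 308 CPM at 24 h (log2 fold change 2.75 ± 0.20 SE, edgeR adjusted p = 2.59e-07). Nr4a1, whose product marks recent T cell receptor signals, had 424, 329.6 and 349 CPM at 0 h and 1168, 1065 and 1385 CPM at 24 h (log2 fold change 1.72 ± 0.0955 SE, edgeR adjusted p = 8.28e-20). Nr4a3 (log2 2.63), Nr4a2 (log2 2.49) and Egr3 (log2 2.50) rose by more than Nr4a1, and the AP-1 gene Fosl1 went from 2.39 ± 1.56 to 38.8 ± 7.76 CPM (log2 fold change 4.05 ± 0.29 SE, edgeR adjusted p = 5.25e-14). Atf3, a stress-induced gene of the same family, went from 0.844 ± 0.321 to 26.03 ± 0.684 CPM (log2 4.97). Cd69, an early activation marker, had 139.8, 142 and 145 CPM at 0 h and 144, 177 and 188 CPM at 24 h. The groups overlapped and the rise was small (log2 fold change 0.26 ± 0.0931 SE, edgeR adjusted p = 0.0246). Without WT 0 h replicate 1, WT 24 h replicate 2 or WT 24 h replicate 3 it did not pass (adjusted p of 0.0518, 0.0976 and 0.163), nor did it with upper quartile scaling (0.0936).

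Receptors of activation rose more often than they fell. In this list 13 of 26 tested members rose and 4 fell, with a median of 0.40. Il2ra, the gene of the alpha chain of the interleukin-2 receptor, had 192, 191 and 223 CPM at 0 h and 718, 663 and 836 CPM at 24 h. The time points lay far apart (log2 fold change 1.87 ± 0.0928 SE, edgeR adjusted p = 1.27e-21). Tfrc, the transferrin receptor gene, had 22.3, 16.2 and 19.4 CPM at 0 h and 128, 122 and 131 CPM at 24 h (log2 fold change 2.72 ± 0.12 SE, edgeR adjusted p = 2.34e-23). Tnfrsf9, which encodes the costimulatory receptor 4-1BB, had 51.6, 42.8 and 45.1 CPM at 0 h and 259, 223 and 313 CPM at 24 h (log2 fold change 2.52 ± 0.11 SE, edgeR adjusted p = 1.7e-22), and Slamf1 (log2 2.27), a receptor of the SLAM family, and Tnfrsf18 (log2 0.75), the gene of GITR, rose too. The 4 that fell included Cd40lg, the gene of the helper signal to B cells, with 209, 169 and 198 CPM at 0 h and 62.3, 63.3 and 80.1 CPM at 24 h (log2 fold change -1.48 ± 0.11 SE, edgeR adjusted p = 7.23e-15). Cd226 (log2 -1.63) and Cd44, the gene of an adhesion receptor that is high on memory T cells, fell as well (log2 fold change -0.64 ± 0.0921 SE, edgeR adjusted p = 1.73e-07). Cd28 was at a log2 of -0.16, which did not pass (edgeR adjusted p = 0.116).

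Among inhibitory receptors and their ligands 6 of 15 tested members rose and 5 fell (8 and 3 with total-count scaling). The count of falls was 3 without WT 0 h replicate 3 or without WT 24 h replicate 2. Cd274, which encodes PD-L1, had 38.97, 41.6 and 39.9 CPM at 0 h and 423, 412 and 429 CPM at 24 h. The fitted rise was 10.5-fold, with no overlap (log2 fold change 3.39 ± 0.0979 SE, edgeR adjusted p = 2.28e-30). Pdcd1lg2, the gene of PD-L2, rose from 10.3 ± 0.222 to 68.5 ± 8.28 CPM (log2 2.73), and the receptor genes Lag3 (log2 2.002) and Pdcd1 (log2 1.13) rose with them. Ctla4 was at a log2 of 0.04 and did not pass, with an edgeR adjusted p of 0.844. Cd96 (log2 -1.47), Cd160 (log2 -1.43) and Lair1 (log2 -1.17) fell. Of the TNF family ligands, Tnfsf8, the gene of the CD30 ligand, had 14.03, 10.5 and 16.3 CPM at 0 h and 112, 122 and 135 CPM at 24 h (log2 fold change 3.17 ± 0.14 SE, edgeR adjusted p = 1.01e-23). Lta (log2 2.06) and Tnf (log2 1.41), genes of lymphotoxin alpha and tumour necrosis factor, rose too, and Ltb, the partner of Lta, fell (log2 fold change -0.49 ± 0.0975 SE, edgeR adjusted p = 5.59e-05).

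Cytokine and chemokine genes were mostly low at 0 h, and of those tested more rose than fell. The filter kept genes with enough reads at either time, so genes near 0 at 0 h were tested only through their 24 h reads. That raises the share of rises among tested members, which is therefore a description and not a result about these lists. Of 29 cytokine genes listed 16 were tested, 8 rose and 3 fell. Il2, the growth factor gene of T cells, had 0.173, 0 and 0.501 CPM at 0 h and 3.42, 4.59 and 4.74 CPM at 24 h and rose at low absolute level (log2 fold change 4.07 ± 0.68 SE, edgeR adjusted p = 2.83e-06). Lif had 2.94, 3.19 and 2.002 CPM at 0 h and 20.1, 23.3 and 34.3 CPM at 24 h (log2 fold change 3.27 ± 0.27 SE, edgeR adjusted p = 6.52e-14), and Vegfa (log2 3.82), Csf2 (log2 2.73) and Il4 (log2 2.31) rose as well. Mif, the gene of a cytokine stored in resting cells, rose by a log2 of 1.07. Ifng, the type 1 cytokine gene, had 14.03, 16.2 and 25.7 CPM at 0 h and 12.9, 21.01 and 60.7 CPM at 24 h. Its libraries overlapped and it did not pass (log2 0.76, edgeR adjusted p = 0.287). Ebi3 (log2 -2.32) and Il16 (log2 -0.71) fell. Of 13 chemokine genes listed 9 were tested and 8 rose, with a median of 5.52, a share and a median that the filter fixed in part. Ccl1, a ligand of CCR8, had 0.693, 0.277 and 0.376 CPM at 0 h and 42.4, 45.2 and 71.6 CPM at 24 h (log2 fold change 6.89 ± 0.31 SE, edgeR adjusted p = 7.46e-23). Ccl3, a ligand of CCR1, had 0.866, 0.554 and 1.88 CPM at 0 h and 49.2, 53.7 and 98.5 CPM at 24 h. It varied most in this group, and its place among the largest rises required libraries without overlap (log2 fold change 5.86 ± 0.51 SE, edgeR adjusted p = 7.01e-06). Ccl4 went from 0.716 ± 0.621 to 31.8 ± 11.3 CPM (log2 5.52), and Cxcl10, an interferon-induced chemokine gene, from 3.72 ± 0.973 to 12.9 ± 3.46 CPM (log2 1.80). Ccl5 was the exception and fell, with 183, 179 and 229.5 CPM at 0 h and 10.8, 11.8 and 18.3 CPM at 24 h (log2 fold change -3.84 ± 0.18 SE, edgeR adjusted p = 4.07e-13). Ccl5 is known from memory and cytotoxic T cells and from NK cells, and the markers of these cells are given below.

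Cytokine receptors fell more often than they rose, by 15 against 9 of 29, whereas with total-count scaling 11 rose and 11 fell. Il7r, which encodes the survival receptor of resting T cells, had 278, 348 and 268 CPM at 0 h and 121, 129 and 139.8 CPM at 24 h (log2 fold change -1.19 ± 0.0920 SE, edgeR adjusted p = 5.75e-15). Il27ra (log2 -0.90) and Il21r (log2 -0.86) and the TGF-beta coreceptor gene Tgfbr3 (log2 -0.97) fell too. Ifngr1, the ligand-binding chain of the interferon-gamma receptor, had 106, 104 and 112 CPM at 0 h and 403, 369 and 473 CPM at 24 h (log2 fold change 1.95 ± 0.0945 SE, edgeR adjusted p = 5.96e-22). The receptor genes of interleukin-12, Il12rb2 (log2 2.16) and Il12rb1 (log2 1.96), and Il4ra (log2 1.23) and Il15ra (log2 1.62) rose. Among genes that act behind these receptors 13 of 23 tested rose and 2 fell. Socs1, an inducible inhibitor of the JAK kinases, had 42.96, 32.97 and 39.7 CPM at 0 h and 244, 254 and 310.1 CPM at 24 h (log2 fold change 2.81 ± 0.13 SE, edgeR adjusted p = 7.15e-19), and the STAT5 target gene Cish rose from 61.4 ± 4.77 to 214 ± 32.05 CPM (log2 1.80). Stat2 (log2 2.07), Stat5a (log2 1.39) and the kinase gene Pim2 (log2 1.28) rose. The 2 that fell were Jak1 (log2 -0.58) and Jak3 (log2 -0.46).

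Genes of homing and of the resting state mostly fell. Of 27 tested homing genes 16 fell and 5 rose, with a median of -0.78. Cxcr5, which leads cells to B cell follicles, had 44.7, 24.4 and 55.3 CPM at 0 h and 5.02, 2.64 and 7.12 CPM at 24 h (log2 fold change -3.10 ± 0.34 SE, edgeR adjusted p = 1.21e-06). Ccr9, the gut homing receptor gene, had 16.6, 20.9 and 12.8 CPM at 0 h and 2.01, 1.84 and 2.37 CPM at 24 h (log2 fold change -3.01 ± 0.29 SE, edgeR adjusted p = 5.03e-12). Cxcr3 (log2 -2.20), Ccr2 (log2 -2.14), Cxcr4 (log2 -1.88) and Gpr183 (log2 -1.52) fell with them. Ccr7, which leads cells into lymph nodes, had 552, 569 and 508 CPM at 0 h and 487, 512 and 497 CPM at 24 h. Its libraries overlapped and it did not pass (edgeR adjusted p = 0.242). Klf2, the transcription factor behind S1pr1, fell from 972 ± 55.6 to 675 ± 33.1 CPM (log2 fold change -0.53 ± 0.08401 SE, edgeR adjusted p = 1.32e-06). Integrin genes Itga6 (log2 0.63) and Itgav (log2 0.55) and the receptor gene Ccr4 (log2 0.95) rose.

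In the naive and quiescence list 23 of 38 tested members fell and 8 rose, with a median of -0.53. Igfbp4, known from naive CD4 T cells, had 683, 649 and 569 CPM at 0 h and 84.99, 103 and 86.9 CPM at 24 h (log2 fold change -2.79 ± 0.0949 SE, edgeR adjusted p = 1.27e-27). Zfp36l2, an RNA decay gene of quiescent lymphocytes, had 1715, 1653 and 2211 CPM at 0 h and 437, 427 and 422 CPM at 24 h (log2 fold change -2.12 ± 0.0981 SE, edgeR adjusted p = 9.77e-23). Foxo1, which drives Il7r and Klf2, had 780.3, 824 and 793 CPM at 0 h and 368, 351 and 316 CPM at 24 h (log2 fold change -1.21 ± 0.0817 SE, edgeR adjusted p = 6.9e-17). Tsc22d3 (log2 -1.08), Tob1 (log2 -0.97), Btg1 (log2 -0.92) and the alpha-arrestin gene Txnip (log2 -0.80), which restrains glucose uptake, fell as well. Members that rose against the rest were Bach2, a repressor of effector genes, with 245, 243 and 227 CPM at 0 h and 662, 639 and 549.8 CPM at 24 h (log2 fold change 1.37 ± 0.0874 SE, edgeR adjusted p = 9.68e-18), and Slfn2 (log2 0.78), Tsc1 (log2 0.73), Peli1 (log2 0.57) and Foxp1 (log2 0.42). These 5 products are known to hold T cells in check.

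**Figure D3:**
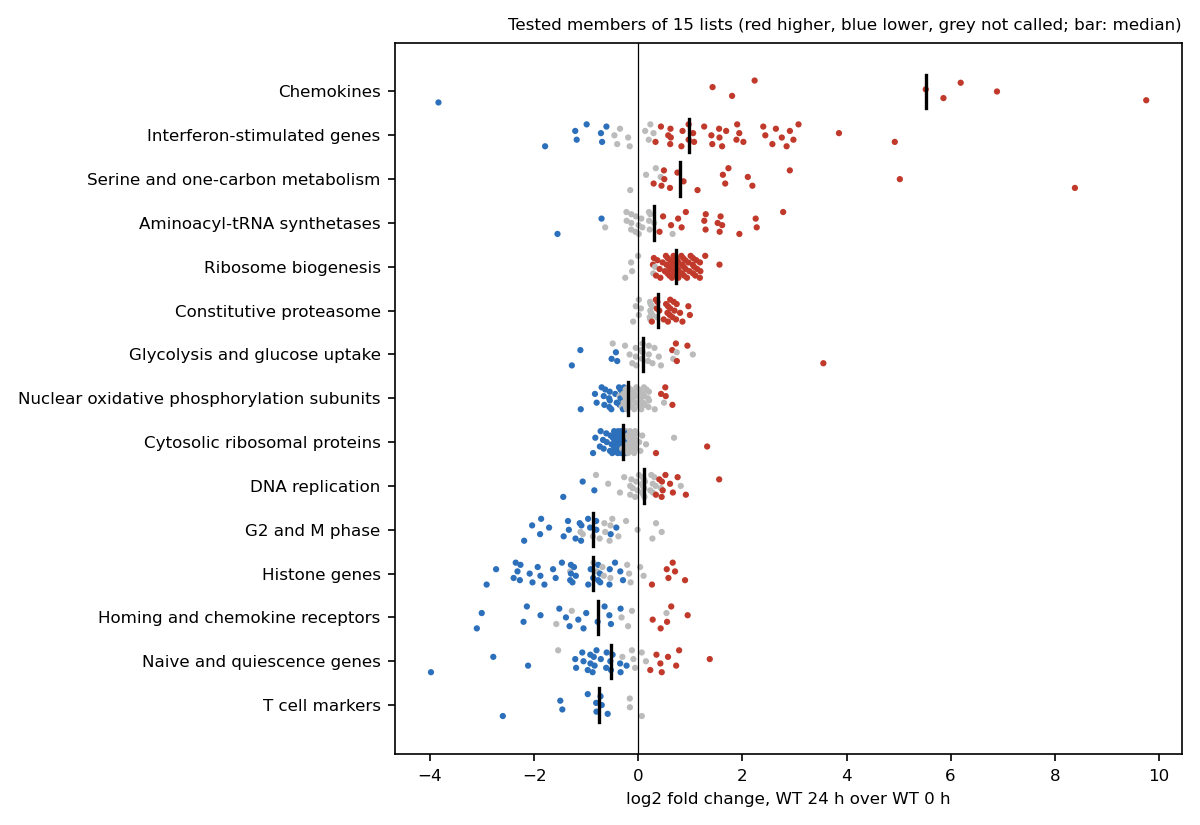
Log2 fold changes of all tested members of 15 gene lists in wild-type cells at 24 h against 0 h, 1 point per gene, coloured by call, with the list median as a bar. The chemokine, ribosome biogenesis and serine and one-carbon lists lie mostly above 0, and the homing, histone and G2 and M phase lists mostly below. Genes near 0 at 0 h, as most of the chemokine genes, were tested only through their 24 h reads.

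Transcription factors of T helper lineages moved in both directions, 12 of 34 tested up and 15 down. Irf4, whose product scales with receptor signal strength, had 54.2, 45.3 and 46.1 CPM at 0 h and 760.1, 757 and 786 CPM at 24 h. The fitted rise was 15.9-fold (log2 fold change 3.99 ± 0.0983 SE, edgeR adjusted p = 5.16e-33). Its relative Irf8 had 12.1, 13.02 and 11.9 CPM at 0 h and 74.5, 80.8 and 102 CPM at 24 h (log2 fold change 2.80 ± 0.15 SE, edgeR adjusted p = 8.01e-21), and Zeb2 went from 2.83 ± 0.716 to 17.96 ± 4.63 CPM (log2 2.62). Bcl6 (log2 1.24), the factor of follicular helper cells, and Eomes (log2 1.14) rose. Tox, a factor linked to persistent antigen, had 307, 236 and 266 CPM at 0 h and 96.4, 96.5 and 89.7 CPM at 24 h (log2 fold change -1.52 ± 0.0993 SE, edgeR adjusted p = 2.58e-17), and Tox2 (log2 -1.63), Maf (log2 -1.46), Ahr (log2 -1.66) and Zbtb7b, the factor of the CD4 lineage (log2 -1.28), fell. Foxp3, which defines regulatory T cells, had 299, 269.9 and 361 CPM at 0 h and 182, 142 and 217 CPM at 24 h. All 24 h libraries were lower (log2 fold change -0.78 ± 0.14 SE, edgeR adjusted p = 0.000226). Of 17 tested genes of regulatory T cells 5 rose and 6 fell, with a median of 0.04 that was -0.02 with upper quartile scaling. Folr4, known as folate receptor 4, fell by a log2 of -0.98 and Ikzf2 (log2 -0.81) and Nrp1 (log2 -1.49) fell too, whereas Ikzf4 (log2 1.13) rose. Of 20 tested genes known from unresponsive T cells 7 rose and 9 fell, and those with the largest rises were Egr2, Egr3, Lag3 and Nr4a1. Ndrg1 rose from 17.2 ± 0.873 to 45.2 ± 8.59 CPM (log2 fold change 1.40 ± 0.18 SE, edgeR adjusted p = 7.66e-09), while Nedd4 (log2 -1.30) and Dgka, a kinase gene that removes diacylglycerol, fell (log2 fold change -0.61 ± 0.0858 SE, edgeR adjusted p = 1.03e-07).

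Cytotoxic genes fell in 9 and rose in 5 of 15 tested members (7 and 6 with total-count scaling). Prf1, the perforin gene, had 28.2, 28.96 and 31.9 CPM at 0 h and 9.64, 7.92 and 8.93 CPM at 24 h (log2 fold change -1.76 ± 0.20 SE, edgeR adjusted p = 3.9e-10), and Nkg7 (log2 -1.18), Klrk1 (log2 -1.65), Klrd1 (log2 -1.16) and Klrg1, which went from 5.38 ± 3.75 to 0.372 ± 0.219 CPM (log2 -3.76), fell. Gzmb, the granzyme B gene, rose from 3.51 ± 0.868 to 12.3 ± 4.58 CPM (log2 fold change 1.79 ± 0.31 SE, edgeR adjusted p = 6.29e-06), as did the granule proteoglycan gene Srgn (log2 0.92) and Crtam (log2 1.62). Markers of other cells that could remain after enrichment moved beside these genes. The summed CPM of the 2 CD8 markers were 17.3 to 18.5 CPM at 0 h and 8.09 to 11.02 CPM at 24 h, and Cd8b1 had 16.97, 17.7 and 17.5 CPM at 0 h and 9.64, 10.1 and 7.67 CPM at 24 h (log2 fold change -0.93 ± 0.20 SE, edgeR adjusted p = 0.000199). The 12 markers of NK and innate-like T cells in the table summed to 61.6 to 74.1 CPM at 0 h and 72.7 to 97.9 CPM at 24 h. Among the 5 tested 2 rose, 1 fell and 2 did not pass, with a median of 0.03. Klrb1c, the gene of NK1.1, was the one that fell, from 16.5 ± 2.197 to 0.606 ± 0.367 CPM (log2 fold change -4.60 ± 0.35 SE, edgeR adjusted p = 5.84e-15), and Klra4 and Klra8 were at 0 in all 6 libraries. Eomes and Zbtb16, which CD4 T cells also express, rose and made up most of the sum. The rise of Zbtb16 was not called without WT 0 h replicate 2 or 3 or WT 24 h replicate 2 or 3. The part of these cells in the changes of Ccl5 and the cytotoxic genes was not tested.

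Of the markers of plasma cells 3 of 4 tested fell, and of those of B cells 3 of 9. The 5 plasma cell markers summed to 94.5 to 156 CPM at 0 h and 2.98 to 5.16 CPM at 24 h. Igj, the gene of the joining chain of antibodies, had 103, 88.8 and 146 CPM at 0 h and 1.81, 1.72 and 2.65 CPM at 24 h. The fitted level at 24 h was 1.84% of that at 0 h (log2 fold change -5.76 ± 0.24 SE, edgeR adjusted p = 9.82e-17). Mzb1, a chaperone gene of plasma cells, had 68 reads over the 0 h libraries and 3 over the 24 h libraries, a ratio of 19.6 (95% exact interval 6.42 to 97.2). The 16 B cell markers summed to 80.2 to 102 CPM at 0 h and 57.8 to 71.1 CPM at 24 h. Cd22 fell from 7.41 ± 2.92 to 0.644 ± 0.3903 CPM (log2 fold change -3.60 ± 0.58 SE, edgeR adjusted p = 1.54e-06), and Cd79a (log2 -1.90) and Cd79b (log2 -2.79) fell with it. The other 6 tested B cell markers did not pass, from a log2 of -0.73 for Bank1 and H2-Aa to 1.003 for H2-Eb1. Cd74 had 50.1, 58.05 and 61.7 CPM at 0 h and 46.01, 54.4 and 44.2 CPM at 24 h and did not pass, with an edgeR adjusted p of 0.204. The 29 markers of myeloid and dendritic cells in the table summed to 29.7 to 42.5 CPM at 0 h and 17.3 to 30.7 CPM at 24 h. At 24 h 11 were at 0, but 7 were at 0 in all 6 libraries, C1qa, C1qc, Fcgr1 and Clec9a among them. A fall was called in 2 of the 8 tested, and the other 6 did not pass, with log2 values up to 1.67. Itgam fell from 5.14 ± 0.121 to 0.913 ± 0.421 CPM (log2 fold change -2.43 ± 0.49 SE, edgeR adjusted p = 7.97e-05). The other fall was not called without WT 0 h replicate 2, WT 24 h replicate 1 or WT 24 h replicate 3. The 11 erythroid and platelet markers summed to 2.63 to 3.64 CPM at 0 h and 1.81 to 5.63 CPM at 24 h, with the globin genes at 0 in every library. Reads of near-identical copies, as of the globin genes, may be lost in counting, so these zeros need not mean absent RNA.

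In the BCL2 family 7 of 15 tested members rose, with a median of 0.42, and Bak1 (log2 -0.54), a killer gene, was the one that fell (6 rose and 2 fell with upper quartile scaling). Bcl2, which blocks cell death, had 195, 183 and 169 CPM at 0 h and 485, 474 and 462 CPM at 24 h (log2 fold change 1.38 ± 0.0885 SE, edgeR adjusted p = 1.34e-17). Bcl2l1, the gene of BCL-XL, had 29.6, 32.4 and 29.4 CPM at 0 h and 66.1, 55.5 and 64.3 CPM at 24 h (log2 fold change 1.02 ± 0.13 SE, edgeR adjusted p = 4.98e-09), and Mcl1 (log2 0.75) rose. Bcl2l11, the gene of the death-inducing BIM, rose in the same libraries from 77.9 ± 5.98 to 207 ± 22.9 CPM (log2 fold change 1.41 ± 0.0978 SE, edgeR adjusted p = 1.82e-16). In the MYC network 5 of 9 members rose and 3 fell (6 and 1 with total-count scaling). Myc, a transcription factor gene that drives cell growth, had 317, 259 and 299.9 CPM at 0 h and 669, 612 and 734 CPM at 24 h. Its fitted rise was 2.301-fold, with no overlap (log2 fold change 1.20 ± 0.11 SE, edgeR adjusted p = 3.32e-11). The antagonists Mxd1 (log2 1.23) and Mxi1 (log2 0.86) rose too and Mxd4 (log2 -0.87) fell.

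Ribosome biogenesis had the largest share of rises, 90.0%, among the lists with at least 20 tested members. Of 60 tested genes of ribosome biogenesis 54 rose, 13 of them to at least 200%, with a median of 0.73 and a range of -0.25 to 1.56. Nop56, a core protein of the box C/D particles that modify ribosomal RNA, had 91.6, 88.5 and 119.9 CPM at 0 h and 259, 221 and 255 CPM at 24 h (log2 fold change 1.29 ± 0.0987 SE, edgeR adjusted p = 4.95e-15). Nop16 had 12.1, 12.6 and 14.02 CPM at 0 h and 40.2, 33.3 and 41.6 CPM at 24 h (log2 fold change 1.56 ± 0.16 SE, edgeR adjusted p = 5.82e-11). Polr1b (log2 1.19), a subunit of RNA polymerase I, Gnl3 (log2 1.18) and Nolc1 (log2 1.19) rose by similar amounts, and Nop2, the E-box promoter shown above, by 0.88. Nop10 and Bop1 were 2 of the 6 that did not pass (edgeR adjusted p = 0.114 and 0.0544). The ribosomal proteins themselves did not follow. Of 80 tested genes of cytosolic ribosomal proteins 48 fell and 2 rose, with a median of -0.30. Rps21 had 620.4, 619 and 579 CPM at 0 h and 326, 306 and 364 CPM at 24 h (log2 fold change -0.87 ± 0.0903 SE, edgeR adjusted p = 4.94e-11), and Rplp2 fell from 2477 ± 206 to 1398 ± 161 CPM (log2 fold change -0.83 ± 0.11 SE, edgeR adjusted p = 4.12e-07). The 2 that rose were Rps27l, which p53 is known to induce (log2 1.32), and Rpl24 (log2 0.34). The falls depended on the scaling, since with total counts 21 fell and 4 rose and the median was -0.09. Of 78 mitochondrial ribosomal protein genes 8 rose and 4 fell, fewer than the background in both directions, and with total-count scaling 18 rose and 2 fell.

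Genes that charge transfer RNA and start translation rose more often than they fell. Among aminoacyl-tRNA synthetases 17 of 37 tested rose. Wars, the tryptophan enzyme gene, which interferon-gamma also induces, had 47.98, 43.5 and 39.4 CPM at 0 h and 290.1, 304 and 304 CPM at 24 h (log2 fold change 2.78 ± 0.0966 SE, edgeR adjusted p = 2.32e-27). Aars, the alanine enzyme gene, had 36.2, 52.2 and 44.3 CPM at 0 h and 191, 205 and 239.9 CPM at 24 h (log2 fold change 2.25 ± 0.11 SE, edgeR adjusted p = 1.28e-21), and Cars (log2 2.27), Iars (log2 1.94), Lars (log2 1.61) and Gars (log2 1.58) rose by log2 values above 1.5. Of the uncalled members Dars was at -0.04 and Qars at -0.05. Lars2, a mitochondrial enzyme gene, fell from 1530 ± 546 to 522 ± 47.5 CPM (log2 fold change -1.55 ± 0.34 SE, edgeR adjusted p = 0.00563). All 37 genes of the list summed to 2486 to 3387 CPM at 0 h, so Lars2 held a large part of that sum. The part of the Rn45s difference in the fall of Lars2 was not tested. Of 41 initiation factor genes 20 rose and 3 fell, and with total-count scaling 31 rose and the other 10 did not pass. Eif4ebp1, an inhibitor of cap-dependent translation, had 9.18, 9.14 and 6.63 CPM at 0 h and 61.7, 49.6 and 70.7 CPM at 24 h (log2 fold change 2.87 ± 0.18 SE, edgeR adjusted p = 3.2e-18). Among the factors that promote initiation Eif3c (log2 1.47), Eif1a (log2 1.21), Eif2s2 (log2 1.05) and Eif4e (log2 0.76) rose.

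Some genes of the integrated stress response, which ATF4 controls, stood among the largest rises. In the joint list with the unfolded protein response 10 of 27 tested rose and 4 fell (15 and 3 with total-count scaling). Chac1, a glutathione-degrading enzyme gene, had 0.346, 0.139 and 0.376 CPM at 0 h and 23.9, 19.9 and 28.6 CPM at 24 h (log2 fold change 6.30 ± 0.39 SE, edgeR adjusted p = 1.21e-17). Asns, the asparagine synthetase gene, had 0.5196, 0.139 and 1.25 CPM at 0 h and 26.5, 24.3 and 37.8 CPM at 24 h (log2 fold change 5.44 ± 0.35 SE, edgeR adjusted p = 7.5e-17). Trib3 (log2 3.39), Sesn2 (log2 2.77) and Atf5 (log2 2.33) rose as well, and the other 5 rises, Ero1l (log2 0.63) among them, were each below a doubling. Hspa5, the gene of the endoplasmic reticulum chaperone BiP, had 271, 267 and 276 CPM at 0 h and 261, 246 and 307 CPM at 24 h. These levels overlapped and it did not pass, with an edgeR adjusted p of 1. Dnajb9, a target of XBP1, fell from 198 ± 34.9 to 60.2 ± 6.59 CPM (log2 fold change -1.72 ± 0.17 SE, edgeR adjusted p = 8.47e-07), and Ppp1r15a, which reverses the stress block on translation, had 544, 507 and 630.3 CPM at 0 h and 73.5, 68.3 and 82.5 CPM at 24 h (log2 fold change -2.91 ± 0.10 SE, edgeR adjusted p = 2.29e-27). Dnajc3 (log2 -0.57), a co-chaperone gene, fell too. Chaperone genes rose in 17 and fell in 4 of 29. The mitochondrial Hspa9 (log2 1.72) and Hspd1 (log2 1.35) and the cytosolic Hsp90ab1 (log2 0.76) and the chaperonin gene Tcp1 (log2 0.82) rose, while the heat-inducible Hspa1a (log2 -3.26) and Dnajb1 (log2 -1.11) fell. Of 36 proteasome genes 22 rose, with a median of 0.39. The examples with the largest rises were Psmd7 (log2 0.99), Psma5 (log2 0.96) and Psma7 (log2 0.85).

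Most tested genes of serine and one-carbon metabolism rose, and amino acid transporter genes rose more often than they fell. Of 21 tested transporter genes 9 rose and 3 fell (12 and 2 with total-count scaling). Slc7a5, which encodes the large neutral amino acid transporter, had 73.8, 71.6 and 77.2 CPM at 0 h and 422, 409 and 465 CPM at 24 h. The fitted rise was 5.82-fold (log2 fold change 2.54 ± 0.0912 SE, edgeR adjusted p = 7.91e-27). Its partner chain Slc3a2 had 126, 121 and 144 CPM at 0 h and 293, 303 and 379.6 CPM at 24 h (log2 fold change 1.32 ± 0.0953 SE, edgeR adjusted p = 7.22e-16). Slc1a5 (log2 1.66), a glutamine carrier, Slc7a1 (log2 1.71), an arginine carrier, and Slc1a4 (log2 4.87) rose, and Slc7a11, the cystine carrier whose promoter is shown above, had 1 read over the 0 h libraries and 113 over the 24 h libraries, a ratio of 131 (95% exact interval 23.03 to 5216). Slc43a2 (log2 -1.68) and Slc25a12 (log2 -0.51) fell. In serine and one-carbon metabolism 16 of 20 tested genes rose, with a median of 0.81. Cth in this list and Slc7a11 and Slc6a9 among the transporters had at most 3 reads at 0 h and were tested only through their 24 h reads. Such members raise the share of rises in both lists. Shmt1 had 5.89, 4.16 and 6.01 CPM at 0 h and 38.8, 33.4 and 48.8 CPM at 24 h (log2 fold change 2.91 ± 0.22 SE, edgeR adjusted p = 3.59e-15), and the mitochondrial Shmt2 had 84.5, 73.3 and 84.1 CPM at 0 h and 322, 319 and 399 CPM at 24 h (log2 fold change 2.10 ± 0.0978 SE, edgeR adjusted p = 1.08e-22). Psat1 and Phgdh, which make serine from a glycolytic intermediate, rose by 2.19 and 1.73, and Mthfd2 (log2 1.67) rose. Tyms and Mtr were 2 of the members that did not pass. Of 17 genes of glutamine, proline and transamination 6 rose and 3 fell (7 and 1 with total-count scaling). The transaminase genes Gpt2 (log2 5.06), Bcat1 (log2 4.61) and Got1 (log2 1.44) and the proline genes Pycr1 (log2 3.01) and Aldh18a1 (log2 1.14) rose.

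Most glucose and mitochondrial genes did not pass the test, though single members changed by more than 2-fold. Of 31 tested genes of glycolysis and glucose uptake 5 rose and 5 fell. The fall count was 3 without WT 0 h replicate 2, WT 0 h replicate 3 or WT 24 h replicate 1, and with total-count scaling 14 rose and 2 fell. Hk2, the inducible hexokinase gene, had 2.25, 1.25 and 2.002 CPM at 0 h and 24.3, 18.5 and 22.2 CPM at 24 h (log2 fold change 3.56 ± 0.30 SE, edgeR adjusted p = 8.9e-14). Slc2a1, the main glucose transporter gene of activated T cells, had 48.3, 38.4 and 41.5 CPM at 0 h and 49.8, 43.6 and 53.99 CPM at 24 h. Its libraries overlapped and it did not pass (edgeR adjusted p = 0.251). Slc2a3 fell from 31.5 ± 1.86 to 12.9 ± 1.20 CPM (log2 fold change -1.28 ± 0.18 SE, edgeR adjusted p = 1.41e-07). Pgk1 (log2 0.74), Tpi1 (log2 0.72), Pgam1 (log2 0.65) and the lactate carrier gene Slc16a1 (log2 0.94) rose, and Gapdh and Pkm were at 0.07 and -0.12 without passing. Of 72 nuclear genes of oxidative phosphorylation 22 fell and 4 rose, with a median of -0.19. That count was 13 without WT 24 h replicate 2, and with total-count scaling 12 fell, 13 rose and the median was 0.0094. Ndufa3, a complex I subunit gene, had 124, 106 and 123 CPM at 0 h and 62.9, 51.7 and 50.5 CPM at 24 h (log2 fold change -1.10 ± 0.11 SE, edgeR adjusted p = 1.83e-11), and Cox8a (log2 -0.83) and Cox6a1 (log2 -0.80) of complex IV fell. The 4 that rose included Cycs (log2 0.66), the cytochrome c gene. In the TCA cycle 10 of 31 fell and 2 rose, with a median of -0.12 that was 0.08 with total-count scaling, where 5 fell and 4 rose. Suclg2 (log2 -1.08) and Idh2 (log2 -0.75) fell the most among its named members. Of 27 genes of fatty acid oxidation 6 fell and 1 rose (5 and 5 with total-count scaling, 6 and 2 with RLE scaling). The share of falls, 22.2%, was near the 20.5% of all genes tested. Its member Cpt1a, which admits fatty acids to mitochondria, had 81.1, 99.3 and 76.6 CPM at 0 h and 38.4, 39.3 and 36.3 CPM at 24 h (log2 fold change -1.17 ± 0.16 SE, edgeR adjusted p = 6.87e-07).

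**Figure D4:**
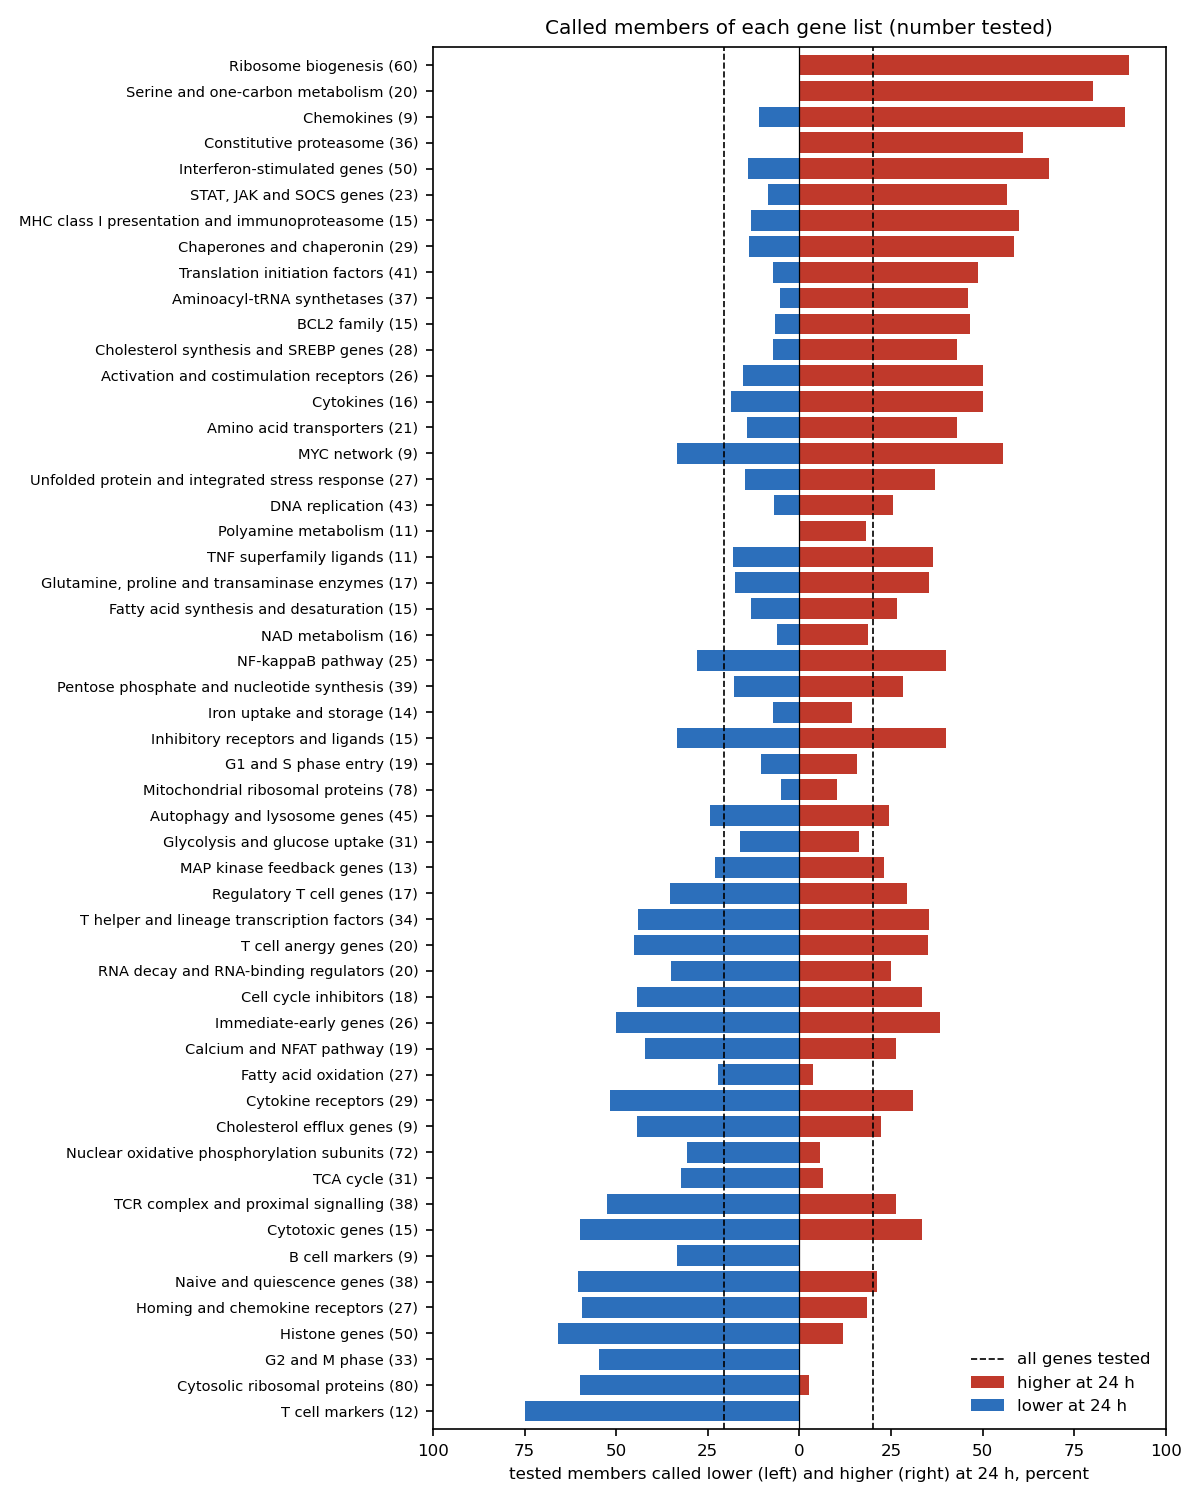
Percent of the tested members of each gene list that rose or fell in wild-type cells at 24 h, 1 bar in each direction per list, with dashed lines at the shares over all genes tested, 20.2% up and 20.5% down. Ribosome biogenesis, serine and one-carbon metabolism and chemokines have the longest bars upward among the lists with 9 or more tested members, and histone, homing and ribosomal protein lists are among the longest downward.

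Genes of cholesterol synthesis rose more often than they fell, while 4 of 9 cholesterol efflux genes fell and 2 rose. Of 28 tested genes of cholesterol synthesis and SREBP 12 rose and 2 fell. Idi1 had 17.8, 10.8 and 21.3 CPM at 0 h and 46.4, 42.6 and 42.5 CPM at 24 h (log2 fold change 1.39 ± 0.18 SE, edgeR adjusted p = 1.51e-08), Sqle (log2 1.03) and Sc4mol (log2 1.02) rose, and Hmgcs1, whose promoter is shown above, rose from 31.5 ± 3.99 to 48.2 ± 4.39 CPM (log2 fold change 0.62 ± 0.15 SE, edgeR adjusted p = 0.000853). Abca1, which exports cholesterol under control of LXR, had 41.6, 49.6 and 37.7 CPM at 0 h and 5.22, 6.08 and 5.86 CPM at 24 h (log2 fold change -2.89 ± 0.20 SE, edgeR adjusted p = 9.34e-17). The further LXR targets Abcg1 (log2 -1.36), Mylip (log2 -1.22) and Smpdl3a (log2 -1.78) fell too, while Soat2, which esterifies cholesterol, and the LXR beta gene Nr1h2 rose (log2 1.83 and 0.35). Acaca, the rate-setting enzyme gene of fatty acid synthesis, rose from 30.04 ± 2.098 to 71.3 ± 2.396 CPM (log2 fold change 1.24 ± 0.12 SE, edgeR adjusted p = 2.05e-11), and Fasn rose by a log2 of 0.30, while the desaturase gene Scd2 fell by 1.06.

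Nucleotide and polyamine genes included named enzymes of synthesis that rose. Of 39 tested genes of the pentose phosphate and nucleotide pathways 11 rose and 7 fell (17 and 6 with total-count scaling). Pfas (log2 1.30), Cad (log2 1.05), Prps1 (log2 0.93) and Umps (log2 0.68) rose, and Prps2 (log2 -1.04), Impdh1 (log2 -0.74) and Rrm2, a subunit of ribonucleotide reductase, fell (log2 fold change -1.44 ± 0.24 SE, edgeR adjusted p = 2.14e-06). Odc1, the first enzyme of polyamine synthesis, had 78.1, 76.6 and 80.3 CPM at 0 h and 166, 163 and 201 CPM at 24 h (log2 fold change 1.18 ± 0.10 SE, edgeR adjusted p = 5.37e-13), and Srm (log2 1.18) rose with it, as the 2 of 11 polyamine genes that passed. That share, 18.2%, was near the 20.2% of all genes tested that rose. Of the 17 polyamine genes listed 5, Oaz1 and Amd1 among them, had no read in any of the 6 libraries. Whether these zeros come from the counting was not tested. Nampt, the rate-setting enzyme of NAD salvage, rose from 38.4 ± 4.61 to 133 ± 9.85 CPM (log2 fold change 1.79 ± 0.11 SE, edgeR adjusted p = 5.98e-18), and Cd38, which consumes NAD, fell from 16.03 ± 1.79 to 2.89 ± 1.22 CPM (log2 fold change -2.51 ± 0.30 SE, edgeR adjusted p = 1.5e-09). Of the 7 sirtuin genes Sirt7, the nucleolar member, was the one that passed, with 63.7, 87.01 and 82.6 CPM at 0 h and 20.9, 25.7 and 31.2 CPM at 24 h (log2 fold change -1.57 ± 0.14 SE, edgeR adjusted p = 2.6e-13). Of 14 iron genes Hmox1 (log2 2.74) and Tfrc rose, and the ferritin gene Fth1 (log2 -1.03) fell (4 rose and 1 fell with total-count scaling, 2 and 2 with upper quartile scaling). Of 45 genes of autophagy and lysosomes 11 rose and 11 fell (15 and 5 with total-count scaling). Each share, 24.4%, was near those of all genes tested, 20.2% up and 20.5% down. The count of falls was 7 without WT 0 h replicate 3. Rragd, a nutrient-sensing GTPase gene, had 3.12, 2.22 and 3.25 CPM at 0 h and 45.01, 34.8 and 38.1 CPM at 24 h (log2 fold change 3.77 ± 0.25 SE, edgeR adjusted p = 2.98e-17), and the protease genes Ctsb (log2 -1.10) and Ctsd (log2 -0.89) fell. Of 20 genes of RNA decay and binding 5 rose and 7 fell (8 and 5 with total-count scaling), with falls of Zfp36, Zfp36l2, Celf2 (log2 -1.27) and Zc3h12a (log2 -1.17) and rises of Zc3h12d (log2 0.89) and Rc3h2 (log2 0.63).

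Of the genes of G2 and M phase 54.55% fell, against 20.5% of all genes tested, while the share of DNA replication genes that rose was near that of all genes tested. Of 19 tested genes of G1 and S phase entry 3 rose and 2 fell (5 and 2 with total-count scaling). Ccnd2, the cyclin D2 gene, had 679.7, 673 and 671 CPM at 0 h and 1006, 999.5 and 1224 CPM at 24 h (log2 fold change 0.67 ± 0.0869 SE, edgeR adjusted p = 1.23e-08), and its kinase gene Cdk6 rose from 10.9 ± 0.777 to 33.4 ± 3.05 CPM (log2 1.61). Of 43 DNA replication genes 11 rose (25.6%, against 20.2% of all genes tested) and 3 fell. The count of rises was 5 without WT 0 h replicate 3, 7 without WT 24 h replicate 1 or WT 24 h replicate 2, 6 with upper quartile scaling, 19 with total-count scaling and 7 in DESeq2. Mcm2, a subunit of the replicative helicase, had 64.95, 60.1 and 73.1 CPM at 0 h and 107, 104 and 124 CPM at 24 h (log2 fold change 0.76 ± 0.11 SE, edgeR adjusted p = 1.63e-07), Mcm6 of the E2F promoter rose by 0.61, and Pole2 (log2 1.55) and Pole (log2 0.91) of DNA polymerase epsilon rose. Pcna was at 0.07 and did not pass. In G2 and M phase 18 of 33 tested genes fell, with a median of -0.87. Mki67, the proliferation marker gene, had 66.5, 58.9 and 106 CPM at 0 h and 27.7, 22.04 and 41.6 CPM at 24 h (log2 fold change -1.35 ± 0.29 SE, edgeR adjusted p = 0.00419). Ube2c (log2 -2.19), Ccnb2 (log2 -2.04) and Ccna2 (log2 -1.89) fell from mean levels of at most 16 CPM. Inhibitors of the cycle rose in 6 and fell in 8 of 18 (8 and 6 with total-count scaling). Cdkn1a, the p21 gene, had 2.25, 2.35 and 1.38 CPM at 0 h and 51.4, 49.95 and 58.7 CPM at 24 h (log2 fold change 4.75 ± 0.23 SE, edgeR adjusted p = 2.43e-22), and Cdkn2d fell by 1.40 and Rbl2, a member of the DREAM complex, by 0.64.

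Histone genes fell in 33 and rose in 6 of 50 tested, with a median of -0.86. Hist1h3d had 14.2, 6.65 and 14.9 CPM at 0 h and 2.21, 1.15 and 1.53 CPM at 24 h (log2 fold change -2.91 ± 0.35 SE, edgeR adjusted p = 2.84e-09), and Hist1h2bb (log2 -2.39), Hist1h3g (log2 -2.35) and Hist1h2ae (log2 -2.32) fell alike. Some members of the same clusters rose, among them Hist1h4d with 221, 163 and 209 CPM at 0 h and 292, 292 and 353 CPM at 24 h (log2 fold change 0.66 ± 0.10 SE, edgeR adjusted p = 1.45e-06), Hist1h2be (log2 0.90) and Hist1h4h (log2 0.71). The variant genes H2afz and H3f3b, which are transcribed throughout the cycle, were at 0.10 and -0.18 and did not pass. Reads of near-identical copies, as in the histone, ribosomal protein, Gbp, globin and Bcl2a1 genes, may be split or lost in counting, so single members of these families are uncertain.

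Interferon-stimulated genes mostly rose. Of 50 tested 34 rose, 24 of them to at least 200%, and 7 fell, with a median of 0.97. Gbp2, a guanylate-binding protein gene that interferon-gamma induces, had 60.5, 44.5 and 51.7 CPM at 0 h and 1403, 1475 and 1869 CPM at 24 h. Its fitted rise was 30.4-fold (log2 fold change 4.93 ± 0.12 SE, edgeR adjusted p = 3.31e-28). Irgm2, an immunity-related GTPase gene, had 37.2, 41.3 and 35.7 CPM at 0 h and 279.9, 259 and 285 CPM at 24 h (log2 fold change 2.85 ± 0.10 SE, edgeR adjusted p = 4.01e-27). Oasl2 (log2 3.08), Gbp3 (log2 2.98), Ifit3 (log2 2.91) and Parp14 (log2 1.89) rose, and Gbp11, also among the largest changes of all genes, had 0.866, 0 and 1.001 CPM at 0 h and 67.5, 67.4 and 47.01 CPM at 24 h (log2 fold change 6.57 ± 0.36 SE, edgeR adjusted p = 5.66e-13). The 7 that fell included Oasl1 (log2 -1.79), Cmpk2 (log2 -1.18), Isg20 (log2 -0.99) and Slfn5 (log2 -0.69), and the viral RNA sensor gene Ddx58 was at -0.17 and did not pass. In MHC class I presentation 9 of 15 tested rose and 2 fell. Tap1, a peptide pump gene, had 156, 189 and 143 CPM at 0 h and 377, 354 and 373 CPM at 24 h (log2 fold change 1.17 ± 0.0905 SE, edgeR adjusted p = 5.76e-15), and Nlrc5, the transactivator of class I genes, rose by 1.13. The class I heavy chain gene H2-K1 had 1840, 1823 and 1924 CPM at 0 h and 1250, 1166 and 1453 CPM at 24 h (log2 fold change -0.53 ± 0.0886 SE, edgeR adjusted p = 2.99e-06), and H2-D1 (log2 -0.45) fell too. B2m, the light chain gene, was at -0.12 and did not pass (edgeR adjusted p = 0.364).

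The Sirt2-/- cells, measured in 6 other libraries, changed in much the same genes. In them 2129 genes rose (19.4% of those tested) and 2306 fell (21.0%). Of the genes that rose in the wild type 1678 also rose in Sirt2-/- cells, which is 75.7% of the wild-type rises and 78.8% of the Sirt2-/- rises. Of those that fell 1791 also fell, 79.5% and 77.7% of the respective falls. Of the 1454 genes called with at least a 2-fold change in the wild type 1241 (85.4%) were called in the same direction in Sirt2-/- cells. Ribosome biogenesis had 54 rises in the wild type and 52 in Sirt2-/- cells, interferon-stimulated genes 34 and 36, G2 and M phase genes 18 and 23 falls, and homing genes 16 and 17 falls. DNA replication had 11 rises against 5, and these counts were not tested against each other. The direct test of a difference in response, the interaction of genotype and time, called 1 gene, Hist1h1e (0.00911% of those tested), in edgeR and 1 in DESeq2. In edgeR 575 of the 10981 genes had an unadjusted p below 0.05. That threshold by itself lets through a fraction of about 0.05 of genes without any difference, so this count is not read as a result. Hist1h1e encodes a linker histone and had 132, 122 and 149.6 CPM at 0 h and 163, 154 and 168 CPM at 24 h in the wild type. It rose there (log2 fold change 0.26 ± 0.09401 SE, edgeR adjusted p = 0.022) and fell in Sirt2-/- cells (log2 -0.44, edgeR adjusted p = 0.00019). The interaction was 0.71 with an SE of 0.13 (edgeR adjusted p = 0.0442). It was not called without any one of WT 0 h replicates 1 and 2 and WT 24 h replicates 1, 2 and 3, nor with RLE, upper quartile or total-count scaling, the replicate block (edgeR adjusted p = 0.0835), at least 5 CPM in 3 libraries, an adjusted p below 0.01 or Rn45s left out. The rise in the wild type alone was not called without WT 0 h replicate 2, WT 24 h replicate 1 or WT 24 h replicate 3, or with upper quartile scaling (edgeR adjusted p of 0.103, 0.0539, 0.0717 and 0.0831).

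**Figure D5:**
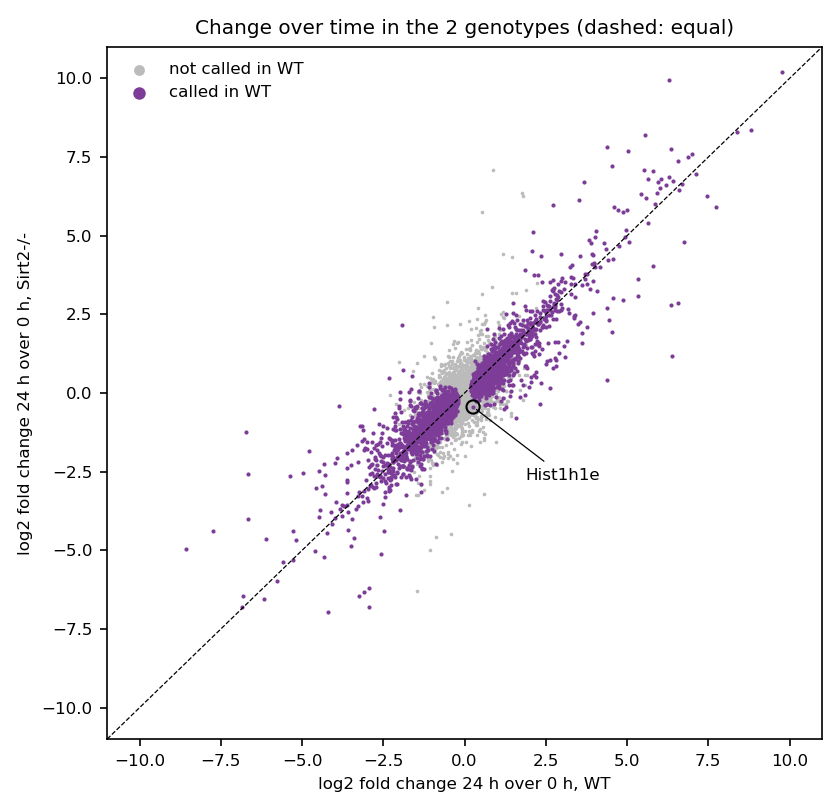
Log2 fold change at 24 h against 0 h in wild-type cells on the x axis and in Sirt2-/- cells on the y axis, 1 point per gene tested, with genes called in the wild type in colour. Most of them lie along the diagonal, and Hist1h1e, the gene called in the interaction, is labelled.

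Because the strand setting of the counting is not given in the sources used here, genes named above whose exons overlap those of another gene in the GENCODE mouse annotation over at least 10% of their bases are uncertain in level. These pairs were Aars with Exosc6, Bak1 with Ggnbp1, Ccna2 with Exosc9, Cd247 with Pou2f1, Cd274 with AC119228.1, Cdkn1a with AC167363.2, Cish with Gm17041, Csf2 with Gm12223, Ctsb with Fdft1, Ctsd with Gm49369, Ebi3 with Gm16712, Fosl1 with Ccdc85b, Foxp3 with Ccdc22, Hist1h1e with Gm11398, Hist1h2ae with Gm44394, Hspa1a with Gm20481, Idi1 with Gm48574, Ifng with Gm49751, Il12rb2 with Serbp1, Il16 with Stard5, Itgam with Gm49368, Klrb1c with Gm44511, Mxd4 with Gm42846, Mzb1 with SPATA24, Ndrg1 with Gm17035, Pkm with Gm49759, Pole2 with Gm49384, Rpl24 with Gm28037, S100a4 with Gm42674, Slc6a9 with Ccdc24, Spry1 with Gm42922, Tcp1 with Acat3, Tnfrsf18 with Gm16008, Txnip with Gm15441 and Ube2c with Tnnc2.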

How the data were processed

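Total RNA of wild-type CD4+ T cells was sequenced as 3 libraries at 0 h and 3 at 24 h. A NuGen Ovation kit turned 100 ng of RNA into each library, with probes reducing ribosomal RNA, per the labels' protocols. The deposited files hold whole-number read counts per gene symbol. The submitters' processing notes name STAR 2.6.0c and DESeq and list the build hg19, a human one, although the symbols belong to mouse, so the build is uncertain. Counting program, annotation and strand handling: not given in the sources used here. The 5 closing entries that name no gene entered neither library sizes nor tests. They held 27.6% of reads without a feature, 29.9% multi-mapped and 0.471% ambiguous at 0 h, and 28.7%, 27.2% and 0.493% at 24 h.

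The filter was filterByExpr across the 4 groups (minimum count 10, minimum total 15). edgeR 4.0.16 in R 4.3.3 fitted 1 robust quasi-likelihood model of the 4 groups of 3 libraries with TMM factors without covariates. Benjamini-Hochberg adjustment ran over all 10981 genes, and a gene rose or fell where it came below 0.05. Each SE given is the absolute log2 fold change divided by the square root of F from the quasi-likelihood test. It is therefore not a separate measure of precision. The fit had a biological coefficient of variation of 0.115, and replicates differed by more than sampling noise (chi-square per gene of 3.68 to 9.03). The script was tested on simulated data. Alternatives were DESeq2 1.42.0, other scaling factors, other filters, a replicate block, the 6 wild-type libraries alone and leaving out each of them. Members and gene lists were chosen with earlier results of these data known, so no list is tested as a set. Named genes were the 15 largest changes in each direction (mean of at least 5 CPM, no overlap), up to 6 called members per direction and 3 uncalled members of each list, all markers of other cells and a set of well-known T cell genes. Transcripts of the mitochondrial genome were not analysed here. A few named genes are not reported here.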

Additional observations from a re-analysis of the deposited data

Results flagged for a closer look

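The response of Hist1h1e, a linker histone gene, differed between genotypes by the test of the interaction itself. The difference of the log2 fold changes, wild type minus Sirt2-/-, was 0.706 ± 0.134 (SE; edgeR adjusted p = 0.0442). In wild-type cells the gene had 132, 121.8 and 149.6 CPM at 0 h and 162.8, 153.9 and 167.8 CPM at 24 h, without overlap. In Sirt2-/- cells the mean went from 163.8 to 120.5 CPM. Over the alternatives its adjusted p for the interaction ranged from 0.00446 to 0.256. Its exons overlap those of Gm11398 over 16.6% and those of Hist1h2be over 10.8% of their bases.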

How the results depend on the processing

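Of 636 named genes with a test 472 passed, and each of these kept its direction under every alternative that gave it a value. Of them 429 passed in all 6 fits that left out 1 wild-type library and 43 did not in at least 1. Named genes lost as calls numbered 28 with total-count scaling, 9 with upper quartile factors, 9 in DESeq2, 32 at an adjusted p below 0.01 and at most 9 under any other setting that kept all libraries. Genes higher were 3580 with total-count scaling and 1927 to 2112 leaving out 1 library each, against 2217, and genes lower were 1468 and 1936 to 2138, against 2253. The cause of the shift with total counts was not tested.

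Counts of list members that moved by more than 1.5 times with total-count scaling were, for falls, 21 against 48 ribosomal proteins (37 to 54 leaving out 1 library), 12 against 22 oxidative phosphorylation genes (13 to 24), 5 against 10 TCA cycle genes (7 to 10), 5 against 11 autophagy genes (7 to 11), 4 against 7 NF-kappaB genes (6 to 7), 3 against 5 inhibitory receptor genes (3 to 5) and 2 against 5 glycolysis genes (3 to 5). For rises they were 31 against 20 initiation factors (17 to 21), 19 against 11 DNA replication genes (5 to 9), 18 against 8 mitochondrial ribosomal proteins (7 to 9), 17 against 11 pentose phosphate and nucleotide genes (11 to 12), 14 against 5 glycolysis genes (5 to 7) and 8 against 5 RNA decay genes (4 to 7). DNA replication rises were 6 with upper quartile factors, 7 in DESeq2 and 5 at an adjusted p below 0.01. At that threshold 5 mitochondrial ribosomal proteins rose, and 7 autophagy, 3 inhibitory receptor and 3 glycolysis genes fell. Without a low-count filter 3 inhibitory receptor and 3 glycolysis genes fell. Of the lists with fewer than 5 called members in a direction, 68 of 944 recounts moved.

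With the replicate block, 2190 genes were higher and 2238 lower. Deviations of same-numbered libraries of the time points correlated at 0.0139, 0.0763 and 0.0934. Those of differently numbered libraries ranged from -0.0866 to 0.0158, the latter between WT 24 h replicate 1 and WT 0 h replicate 2. The same-numbered values were thus mostly higher, but all were small. The labels do not say what the numbers mark, so they are not taken as pairs. The interaction called 0 genes in edgeR with the block, with RLE, upper quartile or total-count factors, with at least 5 CPM in 3 libraries, without Rn45s and at an adjusted p below 0.01, 3 without a filter, and 0 to 1 leaving out 1 library each. The settings with 0 had 512 to 608 genes at an unadjusted p below 0.05 in edgeR, and DESeq2 called 1. An unadjusted threshold lets through genes without any difference, so the counts of 512 to 608 are not read as results. Genes with a few reads per library limit every fold given with an interval or floor.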

Other observations

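Further large falls concerned genes outside the lists. Coro2b, an actin regulator gene, had 14.0, 8.04 and 11.8 CPM at 0 h and 0.201, 0.115 and 1.12 CPM at 24 h (log2 fold change -4.49 ± 0.50 SE, edgeR adjusted p = 2.56e-10). Sostdc1, a secreted antagonist of BMP and Wnt signals, had 11.3, 2.91 and 4.88 CPM at 0 h and 0.603, 0.115 and 0.140 CPM at 24 h, with the widest spread at 0 h relative to its mean among these 4 genes (log2 fold change -4.57 ± 0.82 SE, edgeR adjusted p = 2.56e-05). Faim3, the gene of an IgM receptor that B cells also express, fell from 6.54 ± 3.00 to 0.353 ± 0.495 CPM and Nqo2, a quinone reductase gene, from 5.65 ± 0.695 to 0.420 ± 0.507 CPM.

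The abundant Actb, a common reference gene, had 22760, 22330 and 22710 CPM at 0 h and 11250, 10210 and 11750 CPM at 24 h (log2 fold change -1.03 ± 0.10 SE, edgeR adjusted p = 7.91e-12), whereas Malat1, a nuclear long RNA, was at a log2 of 0.27 and did not pass (edgeR adjusted p = 0.47). The 10 genes with the most reads in each library held 22.6% of gene reads at 0 h and 15.8% at 24 h (exact permutation test, two-sided, p = 0.1, the lowest value possible here).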
